A study of Mus musculus with 19 samples.

Results

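The contacts of the Ube3c gene body were read from capture Hi-C maps of the Shh locus on mouse chromosome 5. The members are the 11 bins of 10 kb at chr5:29890001-30000000 (mm9), chosen by position, out of 280 bins in each map. Their partners are the other 269 bins of the same map. There were 9 groups, each with 1 map in which the group's samples had been merged, from 19 samples in all. Wild type limb buds (3 samples) and wild type midbrain (2 samples) came from C57BL/6 embryos at stage E10.5. Wild type embryonic stem (ES) cells (2 samples) were of strain G4, and 1 of these samples also carries an embryonic stage of E10.5 in its labels. The mutant embryos, 2 samples each at stage E10.5, were all of strain G4. In limb buds they were deltaCTCF i4i5 (the CTCF sites named i4 and i5), deltaCTCF i4i5ZRS, delta-CTCF i4i5ZRSreg, deltaZRSreg (spelled delta-RSreg for 1 sample) and Lmbr1deltaprom/deltaprom, which lacks the Lmbr1 promoter on both alleles, and in midbrain delta-CTCF i4i5ZRS. Every comparison of a mutant with wild type is thus also one of G4 with C57BL/6, so strain and genotype cannot be told apart there, nor can strain and cell type for ES cells against limb. Per the series design the wild type samples are biological replicates and the mutant samples technical ones, and 2 of the 3 wild type limb titles share a library number. Because the samples were merged, no spread between replicates could be computed, no test was run and no p-value is given.

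Ube3c encodes a HECT-type ubiquitin ligase that is widely expressed. It lies beside Mnx1, which encodes a homeobox factor of motor neurons, and on the far side of the regulatory domain of Shh, the gene of the signalling protein that patterns the limb and the neural tube. That domain holds the Shh gene, a gene desert with many Shh enhancers and, within Lmbr1, the limb enhancer called ZRS. CTCF is a DNA-binding protein that, with cohesin, marks many borders between chromatin domains, regions whose DNA contacts itself more often than its neighbours. In the RefSeq annotation (GRCm38.p6) the protein-coding genes run in the order Shh, Rnf32, Lmbr1, Nom1, Mnx1, Ube3c (gene ID 100763) and Dnajb6, with Ube3c on the plus strand and 107 kb long, close to the 110 kb of the 11 bins. The bin with the lowest coordinate is therefore on the side of the Ube3c start.

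The promoters of Ube3c and Mnx1 are shown because the bin on the start side of Ube3c had the highest contact with the Mnx1 bin among the 11 bins in every map. In every map that bin also held the fewest contacts of the 11 in total. RefSeq's promoter table held 2 of the 3 genes looked for (Ube3c, Mnx1 and Shh). Both sequences are 300 bases of GRCm38.p6 read 5′ to 3′ on the gene's own strand, Ube3c from the plus strand at chr5:29568992-29569291 and Mnx1 from the minus strand at chr5:29478421-29478720. The 250 bases before the start are in lower case, and capitals mark the 50 bases from the start on.
Ube3c: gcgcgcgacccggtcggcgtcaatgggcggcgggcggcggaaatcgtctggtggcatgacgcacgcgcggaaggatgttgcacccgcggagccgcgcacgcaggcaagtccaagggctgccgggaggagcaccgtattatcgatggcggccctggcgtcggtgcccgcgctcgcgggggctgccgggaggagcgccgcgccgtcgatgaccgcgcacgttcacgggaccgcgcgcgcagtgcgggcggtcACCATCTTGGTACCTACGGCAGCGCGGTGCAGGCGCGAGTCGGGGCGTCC
Mnx1: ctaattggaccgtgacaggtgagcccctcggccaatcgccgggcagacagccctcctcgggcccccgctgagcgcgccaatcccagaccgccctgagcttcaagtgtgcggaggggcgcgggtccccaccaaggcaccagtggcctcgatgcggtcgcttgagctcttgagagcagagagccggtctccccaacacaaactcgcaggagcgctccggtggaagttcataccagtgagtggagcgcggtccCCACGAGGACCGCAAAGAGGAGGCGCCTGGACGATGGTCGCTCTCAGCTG
The 2 starts are 90.8 kb apart in this build and the genes point away from each other, and in the mm9 maps the Mnx1 bin lies 90 kb below the lowest Ube3c bin. The Ube3c promoter holds 53 CG dinucleotides and has a GC content of 74%, and 0.451% of the 32851 RefSeq promoters of this length hold as many. The Mnx1 promoter holds 26 CG dinucleotides, a count reached by 16.9% of promoters, with a median of 7. GATC, the motif cut by the restriction enzyme DpnII of this protocol, which reads the same on both strands, is in neither sequence and in 48.0% of all promoters.

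Contact is given throughout as contact over expected: the balanced signal of a bin pair divided by the map's own mean over pairs equally far apart, averaged over the pairs of bins compared, so that 1 is the average of that map at that distance. Counts of contacts were recovered exactly from the balanced signal. The maps held from 1177173 contacts (limb i4i5) to 3218492 (ES cells). The 95% intervals printed below cover counting error only, and a contact count without molecular identifiers is not a count of independent molecules.

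The Shh domain was a trough between peaks in the contacts of Ube3c. In wild type limb the 11 bins met the 93 bins of the domain (chr5:28770001-29700000) at 0.720 of expectation (95% interval 0.711 to 0.729, 24423 contacts). The trough was deepest in the domain's interior: contact was 1.21 over its lowest 10 bins, which hold the Shh promoter, 0.632 over the middle 73 and 0.870 over the highest 10. Outside the domain contact was 1.34 over the 18 bins between its upper edge and Ube3c (Mnx1 left out), 1.19 over the 97 bins below the domain and 0.990 over the 58 bins above Ube3c. Peaks stood close outside each edge of the domain. On the far edge the highest bin started at 28730001, 1160 kb from Ube3c, with a contact of 2.22 (2.01 to 2.43, 438 contacts). On the near edge it started at 29710001, 180 kb away, with a contact of 2.11 (2567 contacts). A further peak stood near 1790 kb away. Its bin starting at 28100001 was the highest bin below Ube3c in ES cells, at 2.49, and stood at 1.82 in wild type limb. The level of this bin in the other 7 maps lay between 1.47 and 1.78. The peak's top was at this bin only in ES cells, the map it was picked from. In wild type limb the next bin reached 1.90, and in wild type midbrain, limb i4i5ZRS and midbrain i4i5ZRS a nearby bin reached 1.94.

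**Figure D1:**
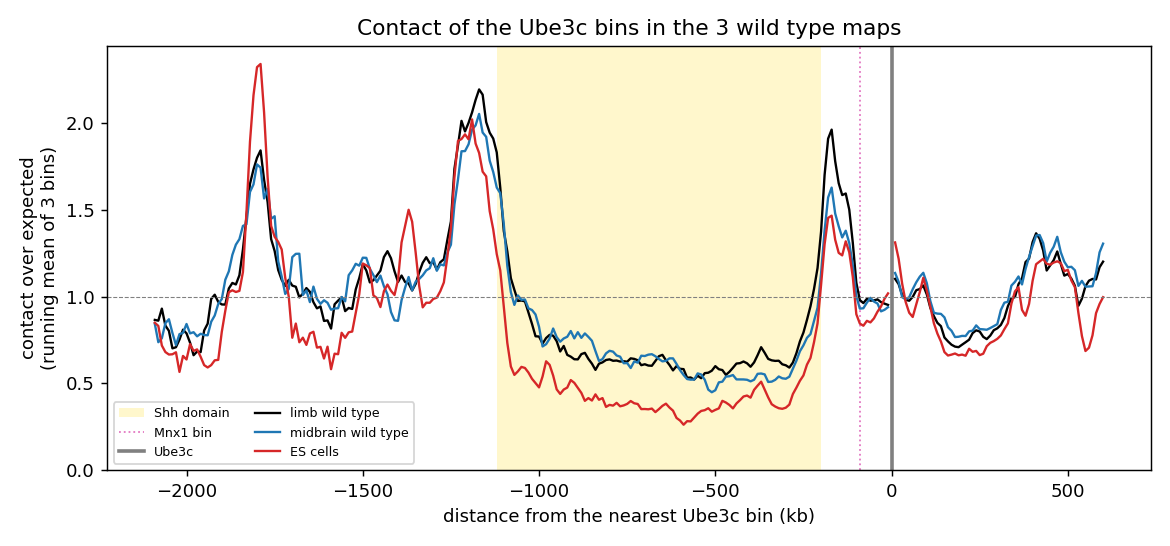
Mean contact over expected of the 11 Ube3c bins with each partner bin (running mean of 3 bins) against distance from the nearest Ube3c bin, negative towards Shh, in wild type limb, midbrain and ES cells, with the Shh domain shaded. All 3 lines dip inside the domain, where they average 0.720, 0.700 and 0.463, and stand above 1 close outside both of its edges.

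Contact of Ube3c with the whole Shh domain separated the 9 maps into 3 levels. The highest 4 maps were those of the alleles that lack the CTCF sites i4 and i5. Contact was 0.921 in limb i4i5ZRS (0.908 to 0.934), 0.913 in limb i4i5 (0.898 to 0.928), 0.892 in limb i4i5ZRSreg (0.881 to 0.902) and 0.883 in midbrain i4i5ZRS (0.871 to 0.896). Neighbours in this order had overlapping intervals. Wild type limb at 0.720, wild type midbrain at 0.700 (0.690 to 0.711), the limb Lmbr1 promoter deletion at 0.692 (0.683 to 0.702) and limb ZRSreg at 0.681 (0.672 to 0.691) formed the middle level, where intervals of neighbours overlapped as well. ES cells were lowest, at 0.463 (0.455 to 0.471). The 11 single Ube3c bins ranged from 0.643 to 0.818 over the middle 4 maps and from 0.827 to 1.06 over the upper 4, so these ranges did not overlap, and in ES cells from 0.399 to 0.554. These bins are neighbours of one sequence and are not replicates. As a share of all Ube3c contacts at 20 kb or more, the domain took 25.4% to 27.4% in the 4 maps lacking i4 and i5, 21.3% to 22.0% in the middle 4 and 15.2% in ES cells.

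**Figure D2:**
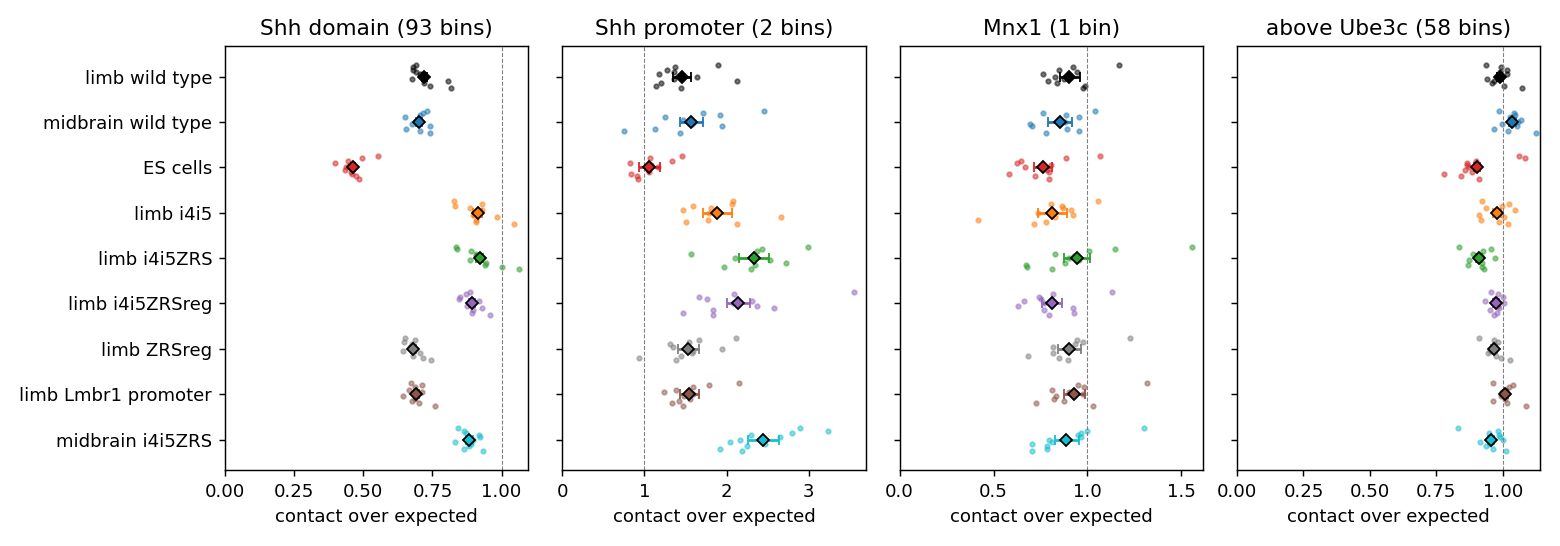
Contact over expected of Ube3c with the Shh domain, the Shh promoter, the Mnx1 bin and the bins above Ube3c in each of the 9 maps. Diamonds are means with the 95% counting interval as bars, and small points are the 11 Ube3c bins; in the domain panel the 4 maps lacking i4 and i5 lie at 0.883 to 0.921 and the middle 4 at 0.681 to 0.720.

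Without i4 and i5, Ube3c met the Shh domain more often than in wild type of the same tissue. The log2 ratio of contact was 0.34 in limb i4i5 (0.31 to 0.37), 0.36 in limb i4i5ZRS (0.33 to 0.38), 0.31 in limb i4i5ZRSreg (0.28 to 0.33) and 0.34 in midbrain i4i5ZRS (0.30 to 0.37), increases of 23.9% to 27.9%. The ratio was above 0 for all 11 Ube3c bins in each of these 4 comparisons, and 88, 87, 85 and 87 of the 93 domain bins were higher, in the same order. The first 3 comparisons share the wild type limb map. The comparison of limb i4i5ZRSreg with limb ZRSreg, both of strain G4, gave 0.39 (0.36 to 0.41), with 90 of 93 domain bins higher. With the mean of both G4 limb maps that keep i4 and i5 as reference, the ratios were 0.41 for i4i5, 0.42 for i4i5ZRS and 0.38 for i4i5ZRSreg. Alleles lacking further sequence beside i4 and i5 differed little from i4i5 alone: i4i5ZRS over i4i5 gave 0.01 (-0.02 to 0.04) and i4i5ZRSreg over i4i5 gave -0.03 (-0.06 to -0.01). The 2 deletions that keep i4 and i5 stood slightly below wild type limb, at -0.08 for ZRSreg (-0.11 to -0.05) and -0.06 for the Lmbr1 promoter (-0.08 to -0.03). The midbrain over limb ratio of the wild type maps was -0.04 (-0.07 to -0.01). With the 5 lowest Ube3c bins alone, the Lmbr1 promoter ratio turned to 0.0024 and that of midbrain over limb to 0.023. With signal scaled to the map's total, the ratios to wild type spread further apart, to 0.47 for i4i5, 0.15 for i4i5ZRS, 0.24 for midbrain i4i5ZRS, -0.17 for ZRSreg, -0.25 for the Lmbr1 promoter and -0.19 for midbrain over limb, so i4i5 and i4i5ZRS were not close under that scaling.

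All 3 limb maps lacking i4 and i5 stood above all 3 limb maps keeping them in 80 of the 93 domain bins (86.0%), and below them in 1. Over all 269 partners the counts were 92 higher (34.2%) and 16 lower (5.95%). Over every stretch of 11 bins in the map with each of its partner bins, 18.6% were higher and 12.1% lower by this rule. Of the 92 higher partners 12 lay below the domain, and none among the 58 bins above Ube3c or the 18 bins of the gap.

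A log2 ratio past 0.5, a change of 1.41-fold, was reached upwards by 22 of 269 partner bins in limb i4i5 (8.18%, against 6.33% over every stretch of 11 bins and its partners), and 20 of them lay in the domain. It was reached upwards by 24 bins in limb i4i5ZRS (8.92%, against 4.61%), 19 of them in the domain, by 9 in limb i4i5ZRSreg (3.35%, against 3.94%), all in the domain, and by 18 in midbrain i4i5ZRS (6.69%, against 5.72%), 12 of them in the domain. In i4i5ZRSreg over ZRSreg it was reached by 36 bins (13.4%, against 6.25%), 33 of them in the domain. The counts over all partners were thus near the background or below it for midbrain i4i5ZRS and limb i4i5ZRSreg over wild type. Downwards 7 bins passed in limb i4i5 (against 3.99%), 8 in i4i5ZRS (against 3.31%), 1 in i4i5ZRSreg (against 2.14%), 3 in midbrain i4i5ZRS (against 3.31%) and 2 in i4i5ZRSreg over ZRSreg (against 2.65%). Of the 2 deletions that keep the sites, ZRSreg gave 0 upwards (against 1.29%) and 8 downwards (2.97%, against 1.65%), and the Lmbr1 promoter 1 upwards (against 1.37%) and 3 downwards (against 1.11%). Wild type midbrain over limb gave 3 upwards and 4 downwards, against 2.33% and 2.9%. Among the maps lacking i4 and i5, i4i5ZRS over i4i5 gave 8 and 8 (against 2.9% and 3.03%), i4i5ZRSreg over i4i5 gave 5 and 4 (against 2.48% and 2%) and midbrain over limb i4i5ZRS gave 10 and 5 (against 3.5% and 4.98%).

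**Figure D3:**
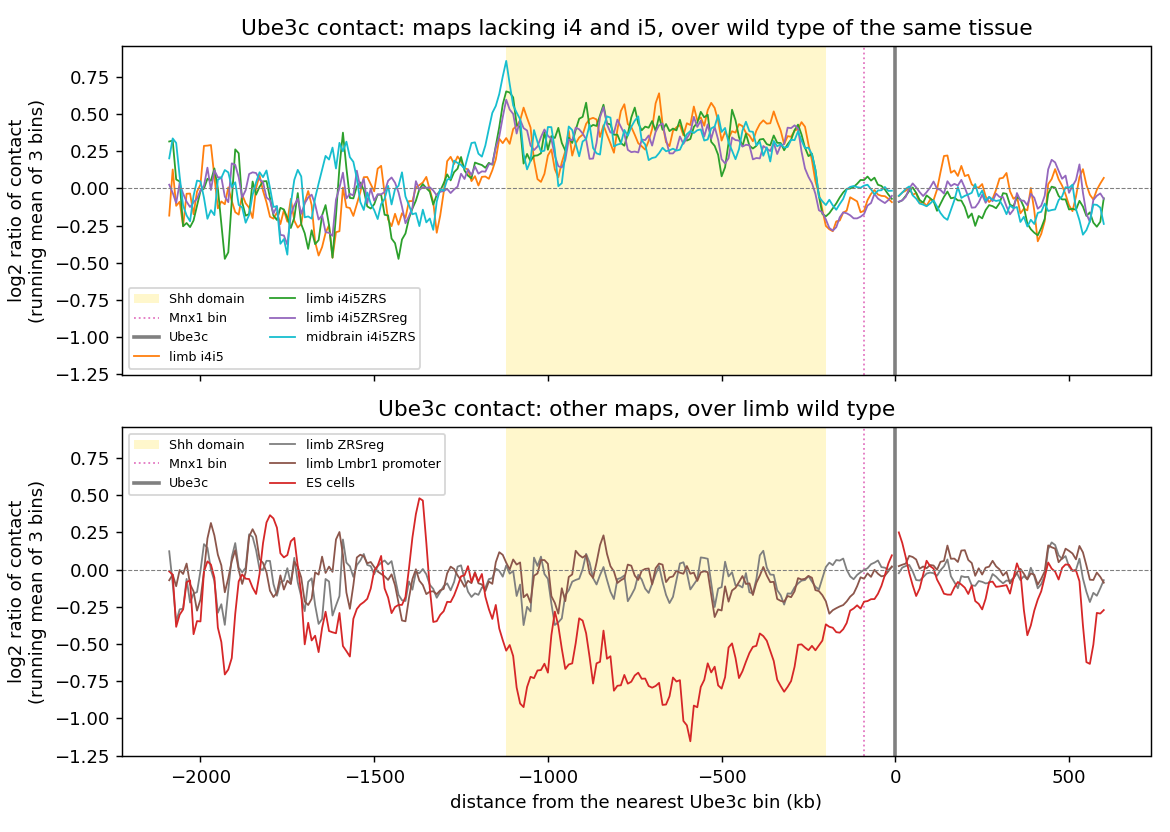
Log2 ratio of Ube3c contact (running mean of 3 bins) against distance from the nearest Ube3c bin, for the 4 maps lacking i4 and i5 over wild type of the same tissue (upper panel) and for limb ZRSreg, the limb Lmbr1 promoter deletion and ES cells over wild type limb (lower panel), with the Shh domain shaded. Over the middle 73 domain bins the upper lines average 0.31 to 0.38. They stand higher at the domain's lower edge in 3 of the 4 maps and drop to 0.04 to 0.16 over its highest 10 bins, and the ES cell line stands at -0.64 on average across the domain.

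The increase was not even along the domain. Over the middle 73 bins the 4 ratios to wild type lay between 0.31 and 0.38, and over the highest 10 bins, next to the upper edge, between 0.04 and 0.16. The top bin of the domain itself, starting at 29690001, was lower than in wild type limb in all 3 limb maps lacking the sites, at -0.20, -0.17 and -0.19 (i4i5, i4i5ZRS and i4i5ZRSreg), and it was also lower in the Lmbr1 promoter deletion, at -0.25. In midbrain i4i5ZRS it differed by -0.02 (-0.20 to 0.15). Right above the edge, the bin starting at 29710001, the highest of the gap in all 9 maps, fell short of wild type limb in i4i5 by a log2 ratio of -0.23, in i4i5ZRS by -0.15, in i4i5ZRSreg by -0.35 and in the Lmbr1 promoter deletion by -0.27. In ZRSreg it stood at 0.09 (0.01 to 0.17). A lower near edge was not limited to the mutants. Against wild type limb, wild type midbrain stood at -0.37 in the bin starting at 29690001 and at -0.30 in the bin starting at 29710001, and ES cells at -0.39 and -0.42. Midbrain i4i5ZRS over its own wild type gave -0.10 (-0.21 to 0.02) in the upper of these bins.

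At the far edge of the domain lies the Shh promoter. Ube3c met the 2 promoter bins (chr5:28780001-28800000) at 1.45 in wild type limb (1.35 to 1.57, 685 contacts), 1.57 in wild type midbrain, 1.54 in the Lmbr1 promoter deletion, 1.53 in limb ZRSreg and 1.06 in ES cells (0.939 to 1.19, 276 contacts). In the maps lacking i4 and i5 the level was 1.88 in limb i4i5, 2.14 in limb i4i5ZRSreg, 2.33 in limb i4i5ZRS and 2.44 in midbrain i4i5ZRS. These 4 stood above the other 5 maps, with no overlap of their intervals. The closest limits were 1.71 (upper, wild type midbrain) and 1.72 (lower, limb i4i5), a margin too small for intervals that are approximate. Log2 ratios to wild type were 0.37 (0.20 to 0.55) for limb i4i5, 0.56 (0.41 to 0.70) for i4i5ZRSreg, 0.68 (0.52 to 0.84) for i4i5ZRS and 0.64 (0.47 to 0.81) for midbrain i4i5ZRS, with all 11 Ube3c bins higher in each. The lower promoter bin, starting at 28780001, was the partner with the highest ratio in 3 of these 4 comparisons among bins with 100 or more contacts in both maps: 0.81 for limb i4i5ZRS, 0.79 for i4i5ZRSreg and 0.85 for midbrain i4i5ZRS. In limb i4i5 its ratio was 0.43 and the bin starting at 29020001 led with 0.75. The rise was not limited to the promoter bins. The 2 bins just below them start at 28770001 and 28760001. Their ratios were 0.59 and 0.56 for limb i4i5ZRS, 0.53 and 0.47 for i4i5ZRSreg and 0.88 and 0.84 for midbrain i4i5ZRS. In limb i4i5 they were 0.16 (-0.27 to 0.57) and 0.42 (0.01 to 0.83). Wild type midbrain held 78 and 72 contacts there, under the limit of 100. Limb i4i5ZRS exceeded limb i4i5 at the promoter by 0.31 (0.13 to 0.48), with 10 of 11 Ube3c bins higher, beside a ratio of 0.01 over the whole domain.

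At the ZRS window, 5 bins at chr5:29620001-29670000 placed from the known distance between Shh and this limb enhancer, contact was 0.804 in wild type limb. It was higher in limb i4i5 by a log2 ratio of 0.28 (0.18 to 0.38) and in i4i5ZRS by 0.26 (0.17 to 0.35), and in midbrain i4i5ZRS over its wild type by 0.24 (0.14 to 0.34). In i4i5ZRSreg, whose allele name carries ZRSreg, the ratio was 0.08 (-0.01 to 0.16), and against ZRSreg, of the same strain, 0.14 (0.05 to 0.23).

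ES cells differed from wild type limb in the other direction and in more partners. The log2 ratio of contact with the domain was -0.64 (-0.67 to -0.61), a decrease to 0.463 from 0.720, and 0 of the 93 domain bins and 0 of the 11 Ube3c bins were higher in ES cells. A log2 ratio below -0.5 was reached by 87 of 269 partner bins (32.3%, against 13.3% over all stretches), of which 72 lay in the domain. In the upward direction 1 bin passed, against 4.61%. The lowest ratio among bins with 100 or more contacts was -1.17, at the bin starting at 29230001 in the domain (119 contacts in ES cells and 372 in limb). Among the same bins the highest was 0.63, at the bin starting at 28530001, 1360 kb from Ube3c, where ES cells stood at 1.57 and the other 8 maps between 0.880 and 1.10. Contacts inside the Ube3c bins (pairs 20 kb or more apart) went the other way. They stood at 1.38 of expectation in ES cells (1.37 to 1.40) and 1.151 in wild type limb (1.13 to 1.17), a log2 ratio of 0.27 (0.24 to 0.29), with 44 of 45 bin pairs higher. In the other 7 maps the level within the gene lay between 1.09 and 1.20. In ES cells 259 of the 270 stretches of 11 bins in the map had a lower level within themselves than Ube3c, and in wild type limb 229 of 270.

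In ES cells the start side of the gene stood above the rest of it in contact with the domain, the bins above Ube3c and the bins below the domain. This split was chosen after the values were seen. The 2 lowest Ube3c bins stood above the other 9 in contact with the domain by a log2 ratio of 0.22 (0.15 to 0.29), with the bins above Ube3c by 0.31 (0.27 to 0.36) and with the bins below the domain by 0.24 (0.16 to 0.31). In the other 8 maps the same 3 quantities ranged from -0.17 to 0.06, from -0.09 to -0.01 and from -0.09 to 0.08. The split in ES cells also gave 0.45 (0.23 to 0.67) for Mnx1 and -0.12 (-0.16 to -0.08) for the gap. These 2 were not particular to ES cells: limb i4i5ZRS gave 0.67 for Mnx1, and the Lmbr1 promoter deletion -0.12 for the gap. For the domain, the lowest bin reached 0.554 in ES cells, and the other 10 lay between 0.399 and 0.495. The gap bins just below the gene stood higher still in ES cells. Their contact with the domain fell from 0.852 in the bin starting at 29860001 to 0.744 and 0.661 in the next 2. The values at the start side thus continued a fall that began outside the gene. For the bins above, the 2 lowest bins stood at 1.06 and 1.09, and the others between 0.779 and 0.909. The lowest bin also had the fewest recovered contacts of the 11 in every map, from 0.570 to 0.704 of the map's median bin, and the part of this in its values was not tested.

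**Figure D4:**
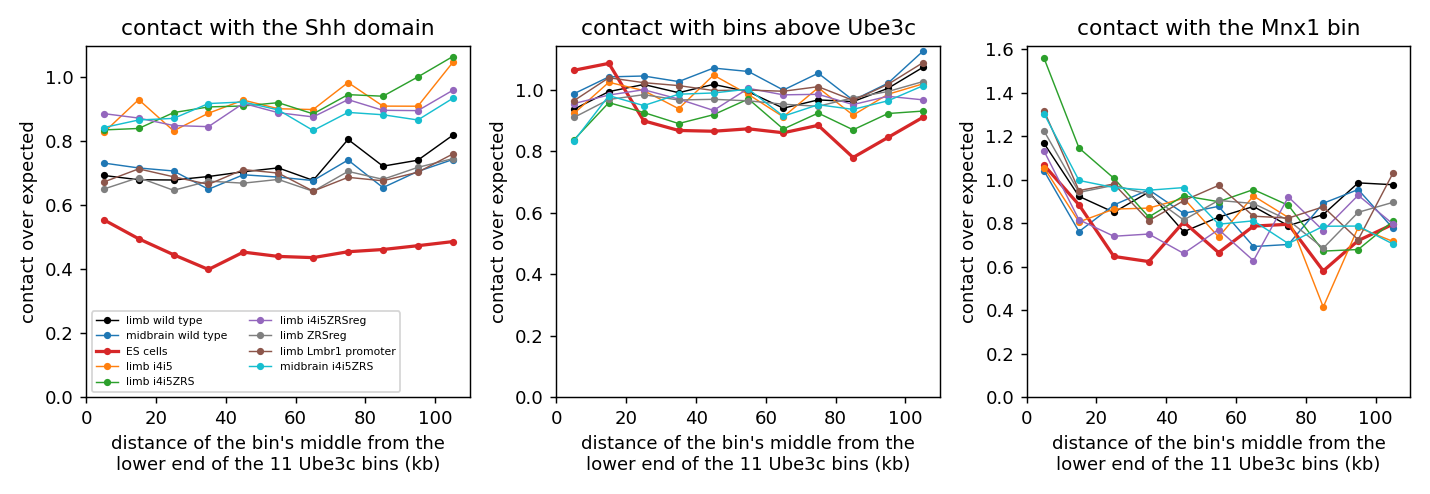
Contact over expected of each of the 11 Ube3c bins with the Shh domain, with the bins above Ube3c and with the Mnx1 bin, against the bin's distance from the end of the gene body where Ube3c starts, 1 line per map, ES cells drawn thick. In ES cells the 2 bins at the start side lie above the rest in the first 2 panels, and in the Mnx1 panel the first bin is the highest in each of the 9 maps. The bins below the gene, where ES cell contact with the domain already fell, are not drawn.

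Mnx1, the next gene towards Shh, lay in a low of the gap. Ube3c met its bin (chr5:29800001-29810000) at 0.904 in wild type limb (0.852 to 0.959, 1111 contacts), and at 1.59 the bin starting at 29770001, 30 kb nearer to Shh. The Mnx1 level was 0.853 in wild type midbrain, 0.761 in ES cells (0.714 to 0.811), 0.942 in limb i4i5ZRS, 0.930 in the Lmbr1 promoter deletion, 0.903 in ZRSreg, 0.889 in midbrain i4i5ZRS and 0.810 in both limb i4i5 and i4i5ZRSreg. These values were close: ES cells stood below wild type limb by a log2 ratio of -0.25 (-0.37 to -0.12) and i4i5ZRSreg by -0.16 (-0.29 to -0.03), and the intervals of the other 6 ratios to wild type included 0. The widest of those intervals was that of limb i4i5, -0.32 to 0.0037, from 432 contacts. The Mnx1 bin did not separate the maps lacking i4 and i5 from those keeping them, with neither all higher nor all lower among the 6 limb maps. Within the gene, the Ube3c bin at the start side had the highest contact with Mnx1 in 9 of 9 maps. Its value was 1.17 in wild type limb, where the other 10 bins lay between 0.761 and 0.986, 1.04 in wild type midbrain, 1.07 in ES cells and 1.56 in limb i4i5ZRS. These single bin pairs rest on 51 to 135 contacts each. The start-side bin also had the highest contact with the Shh promoter in each map except wild type limb, limb i4i5 and midbrain i4i5ZRS. Its value there was 3.55 in limb i4i5ZRSreg, where the other 10 bins reached at most 2.57. Its place was thus not particular to Mnx1. It had the fewest recovered contacts of the Ube3c bins in every map, from 0.570 to 0.704 of the map's median bin. The part of this in its values was not tested.

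Above Ube3c, towards Dnajb6, contact stood near expectation and changed little between maps. The mean over the 58 bins at chr5:30020001-30600000 was 0.990 in wild type limb (0.979 to 1.00), 1.04 in wild type midbrain, 1.01 in the Lmbr1 promoter deletion, 0.977 in limb i4i5, 0.973 in i4i5ZRSreg, 0.968 in ZRSreg, 0.956 in midbrain i4i5ZRS, 0.910 in limb i4i5ZRS and 0.902 in ES cells. The order along the region was the same in all 9 maps: the next 10 bins lay between 0.948 and 1.03, the middle 20 between 0.706 and 0.835, and the top 28 between 1.02 and 1.18. Log2 ratios to wild type of the same tissue were largest for i4i5ZRS, at -0.12 in limb (-0.15 to -0.10) and -0.12 in midbrain (-0.14 to -0.09), with 0 of 11 Ube3c bins higher in either. For i4i5 and i4i5ZRSreg they were -0.02 and -0.02, and the second turned to 0.069 from counts before balancing. In i4i5 the middle 20 bins stood at 0.07 (0.02 to 0.12) and the next 10 and top 28 at -0.06 and -0.05. ES cells over limb gave -0.13 (-0.16 to -0.11), and wild type midbrain over limb 0.06 (0.04 to 0.09), a sign that turned to -0.030 with signal scaled to the map's total. The single highest bin above the gene started at 30410001, 420 kb away, in wild type limb (1.43), wild type midbrain (1.49) and midbrain i4i5ZRS (1.35). It started at 30450001 in limb i4i5, i4i5ZRSreg, ZRSreg and the Lmbr1 promoter deletion (1.34 to 1.47), at 30420001 in ES cells and at 30590001 in limb i4i5ZRS. The counting intervals of the 2 bins at 420 and 460 kb overlapped in wild type limb, where the second stood at 1.26.

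Contact across the gap between Ube3c and the domain was 1.34 in wild type limb, 1.35 in ZRSreg and 1.31 in limb i4i5ZRS, and lay between 1.12 (ES cells) and 1.22 (limb i4i5) in the other 6 maps. Midbrain stood below limb both in wild type, by a log2 ratio of -0.16 (-0.19 to -0.14), and in i4i5ZRS, by -0.18 (-0.20 to -0.15), with 0 of 11 Ube3c bins higher in either comparison. The Lmbr1 promoter deletion gave -0.15 (-0.18 to -0.13) against wild type limb. Drops of like size stood in limb i4i5, at -0.14 (-0.17 to -0.11), and i4i5ZRSreg, at -0.17 (-0.20 to -0.15), and ES cells gave -0.26 (-0.28 to -0.24). Limb i4i5ZRS differed by -0.03 (-0.05 to -0.002) and ZRSreg by 0.02 (-0.004 to 0.04). Within strain G4, i4i5ZRSreg over ZRSreg gave -0.19 (-0.22 to -0.17), with 0 of 18 gap bins higher. Below the domain the mean ran from 1.10 in ES cells to 1.24 in midbrain i4i5ZRS, and the 3 limb maps lacking i4 and i5 (1.17 to 1.20) differed from wild type limb (1.19) by log2 ratios of -0.03 to 0.00. Against ZRSreg, of the same strain, i4i5ZRSreg stood higher there by 0.06 (0.03 to 0.10), with 58 of 97 bins higher. In i4i5, i4i5ZRS and i4i5ZRSreg, 45, 44 and 47 of the 97 bins were higher than in wild type limb. The bin next to the domain, starting at 28760001, was higher in all 3. Its log2 ratios were 0.42 (0.01 to 0.83), 0.56 (0.19 to 0.92) and 0.47 (0.13 to 0.80), in the same order.

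The ratios of Ube3c to the domain were not particular to the gene. Of the 80 stretches of 11 bins above the Shh domain, the log2 ratio of limb i4i5 over wild type ran from 0.30 to 0.38 with Ube3c at 0.34, that of i4i5ZRS from 0.16 to 0.42 with Ube3c at 0.36 and that of i4i5ZRSreg from 0.21 to 0.43 with Ube3c at 0.31. All 80 stood above 0 in each. The ES cell ratio varied far more along the chromosome, from -0.88 to 0.16, with Ube3c at -0.64 and 19 stretches lower. Stretches overlap and are not independent. The single bins whose contact with the domain ran most like that of Ube3c over the 9 maps were its neighbours, starting at 30000001 (Pearson r = 0.993), 30040001 (0.992) and 30010001 (0.990). Of the 79 bins above the domain outside the gene, 43 had an r above 0.9, with a median of 0.908. The points share their maps and depth, and r is given as a description.

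**Figure D5:**
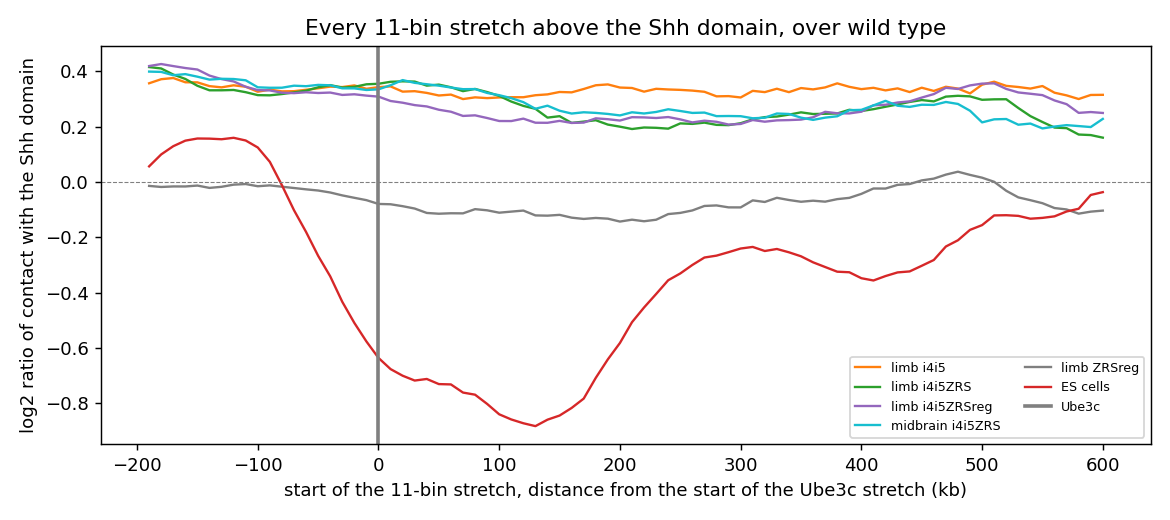
Log2 ratio of contact with the Shh domain, mutant over wild type of the same tissue and ES cells over wild type limb, for every stretch of 11 bins above the domain, against the stretch's distance from Ube3c. The lines of the 4 maps lacking i4 and i5 stay above 0 along the whole axis, and limb ZRSreg stays between -0.14 and 0.04. ES cells start at 0.06 next to the domain, reach 0.16 and fall to -0.88 at a distance of 130 kb beyond Ube3c. From there they climb back to -0.04 at 600 kb.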

How the data were processed

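Capture Hi-C counts ligated pairs of DNA fragments from a chosen region. The authors deposited a signal per pair of 10 kb bins, balanced (KR) with reads of mapping quality MAPQ30 and samples merged per group, per the deposited file names. Per the submitters' processing notes, the build was mm9 and the tools included Juicer, SAMtools, Bowtie2 2.3.4.1 and cutadapt 1.15. How these were set, and how duplicates were handled, is not given in the sources used here. Unlisted pairs were taken as 0. Because KR balancing only divides a count by a factor of both bins, counts were recovered, with 100% of values whole within 0.01. Levels are means of observed over expected (mean at the same separation, zeros included), computed with Python 3.11.15, numpy 2.4.6 and scipy 1.17.1. The 95% intervals are exact for the pooled counts: Poisson for levels, binomial for ratios and shares. For levels and ratios they were scaled to the mean. The mean weighs all bin pairs alike, whatever their counts, so these intervals are approximate and can be too narrow. Scripts were tested on simulated data. The bins, regions and comparisons were chosen with earlier results of these data known. Named bins are those of the rule's regions, the Shh promoter, the ZRS window, each map's highest partner bins 50 kb or more away, each comparison's 3 highest and 3 lowest such bins with 100 or more contacts in both maps, and the 3 most alike bins. Bins at the domain's edges, the parts of the flanks and the 2 lowest Ube3c bins were picked after their values were seen. So were the bins starting at 29770001 and 28530001, and that starting at 28100001 with its neighbours. Expected value, scaling, viewpoint, reference map, regions, balancing and fold were varied in turn.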

Additional observations from a re-analysis of the deposited data

Results flagged for a closer look

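Contact of Ube3c with the 97 bins below the Shh domain had log2 ratios of opposite sign when i4i5ZRS was compared with wild type in the 2 tissues, although the limb interval includes 0. The log2 ratio was -0.01 (-0.05 to 0.02) in limb, with 4 of 11 Ube3c bins higher, and 0.07 (0.03 to 0.11) in midbrain, with 10 of 11 higher. Midbrain minus limb was 0.083. This difference was not tested, since each tissue has 1 merged map per genotype. A positive ratio was not limited to midbrain. Limb i4i5ZRSreg over limb ZRSreg, both of strain G4, gave 0.06 (0.03 to 0.10), with 10 of 11 Ube3c bins higher.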

How the results depend on the processing

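No paired analysis was possible because the samples of each group were merged before deposit. Leaving out a replicate was not run, for that reason. An alternative counts as moved when it shifts a log2 ratio by more than the SD over the 11 Ube3c bins, and as reversed when a ratio whose counting interval leaves out 0 changes sign. Of the 161 alternative log2 ratios for the domain, Mnx1 and the bins above, 139 did neither, including every one for Mnx1. For Mnx1 the rule could flag little. Its SD in the ratios to wild type was 0.15 to 0.34, against 0.03 to 0.15 for the domain and the bins above. A reversal could also apply only to its ES cell and i4i5ZRSreg ratios among these.

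Scaling signal to each map's total shifts all positions of a map, by -0.47 (ES cells), 0.17 (i4i5), -0.16 (i4i5ZRS) and -0.13 (Lmbr1 promoter) at the median of all stretches and partners, and by less than 0.1 in the other 4 comparisons. The domain ratios then became -0.19 (midbrain over limb), -0.93 (ES cells), 0.47 (i4i5), 0.15 (i4i5ZRS), -0.17 (ZRSreg), -0.25 (Lmbr1 promoter) and 0.24 (midbrain i4i5ZRS). The ratios above Ube3c became 0.034 (i4i5), -0.26 (i4i5ZRS) and -0.15 (ZRSreg), and reversed to -0.030 (midbrain over limb) and -0.16 (Lmbr1 promoter). With the median for the mean at each separation the domain ratios were 0.25 (i4i5) and 0.24 (i4i5ZRSreg), and the ratio above was -0.068 (i4i5). With the G4 limb maps as reference the domain ratios moved to 0.41, 0.42 and 0.38. From counts before balancing the ratios above reversed to -0.030 (midbrain over limb) and 0.069 (i4i5ZRSreg). With the 5 lowest Ube3c bins alone the domain ratio reversed to 0.023 (midbrain over limb) and to 0.0024 (Lmbr1 promoter). The causes were not tested.

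At a log2 fold of 0.3 the counts of partner bins higher and lower were 14 and 22 (midbrain over limb), 9 and 133 (ES cells), 64 and 17 (i4i5), 64 and 23 (i4i5ZRS), 59 and 10 (i4i5ZRSreg), 7 and 21 (ZRSreg), 6 and 20 (Lmbr1 promoter) and 62 and 10 (midbrain i4i5ZRS). The 4 maps lacking i4 and i5 gave 21.9% to 23.8% of partners upwards, against 14.0% to 18.0% over all stretches, ES cells 49.4% downwards against 25.0%, ZRSreg 7.81% downwards against 6.61% and the Lmbr1 promoter 7.43% against 5.71%, and the other counts at this fold were below their background. At a fold of 1 they were 0 and 0, except for 5 lower in ES cells and 1 lower in midbrain i4i5ZRS. The share in ES cells was 1.86%, below the 2.03% over all stretches, and that in midbrain i4i5ZRS was 0.372% against 0.116%. Depth limits single pairs most: the Mnx1 bin rests on 432 to 1111 contacts a map and the promoter on 276 to 962.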
